A study of Mus musculus with 5 samples.

Results

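The genes described here are 10 immediate early genes: the AP-1 subunits Fos, Fosb, Jun, Junb and Jund, the transcription factor gene Egr1, the small nuclear protein gene Ier2, the phosphatase genes Dusp1 and Dusp2, and the anti-proliferative gene Btg2. They were chosen by symbol, and all 10 were found among the 11643 genes of the deposited expression table. Expression was measured by RNA-seq in haematopoietic stem cells (HSCs) of the bone marrow of C57BL/6 mice, sorted as lineage-negative, c-Kit-positive and Sca-1-positive cells that also carried CD150 and lacked CD48. There were 3 control libraries, called C1 to C3 here by their replicate number, and 2 libraries labelled Tle1/3/4-deficient, called T1 and T2. In the second group floxed alleles of Tle1, Tle3 and Tle4, which encode transcriptional co-repressors, were to be removed by Vav-Cre, a recombinase expressed throughout the blood system and so not specific to HSCs. The control libraries have names that begin with VavC, and what this says of Vav-Cre in them is not explained. The labels otherwise give neither the age of the mice nor the Cre and floxed allele status of the controls. They also do not tie replicates to separate animals, so each p-value reflects the spread among these 5 libraries, which may be technical.

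Immediate early genes are transcribed within minutes of a signal and need no new protein for it. Signals that run through the ERK, JNK and p38 kinases act on transcription factors already bound at their promoters, among them SRF with its ELK partners and CREB. JUN proteins pair with FOS proteins, or with one another, through a leucine zipper to form AP-1, whereas FOS proteins need a JUN partner to bind DNA stably. DUSP1 and DUSP2 remove phosphate from the same kinases and so act as feedback inhibitors. In HSCs, EGR1 is known for keeping cells quiescent and in the niche, and JUNB for restraining proliferation.

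The level of these genes is given in FPKM, a fragment count scaled to transcript length and library size. This scaling does not correct for differences in composition between libraries, where very abundant genes lower the values of the others. The columns summed to 616738 to 650087 FPKM in the controls, and to 683822 and 599137 FPKM in T1 and T2. Absolute depth is unknown, and relative depth estimated from a few low values ran from 1.11 to 1.46 times that of C1. Among the targeted genes Tle3 ran counter to the labels, at 2.48 to 5.61 FPKM among the controls and 32.3 and 31.6 FPKM in T1 and T2. Tle1 had 0.811 to 3.33 FPKM among the controls, against 2.84 FPKM in T1 and 4.37 FPKM in T2, and so was not below them. Tle4 had 5.67, 0.0129 and 5.29 FPKM in C1 to C3, against 0.353 FPKM in T1 and 0.203 FPKM in T2, which is lower than 2 of the 3 controls. As the 3 genes did not all follow the labels, every direction below rests on the labels. All 12 HSC markers examined were above 0 in every library, but most were lower in T1 and T2. Log2 fold changes were negative for 10 and positive for 2. The median difference from the control mean, in log2(FPKM + 1), was -0.35 in T1 and -0.85 in T2. Both libraries were below every control for 4 markers and above for 2 (15.9% and 10.2% of all genes tested). Kit was among the 4, at 149 to 185 FPKM in the controls and 102.3 and 101.6 FPKM in T1 and T2. T2 stood farthest from the other 4 libraries in granulocyte-monocyte markers. The summed level of 16 granulocyte-monocyte markers was 564 to 3057 FPKM in the controls, 11263 FPKM in T1 and 67683 FPKM in T2. In bulk RNA, more cells of a type cannot be told apart from more RNA per cell. Each result below is therefore given for T1 and T2 separately.

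Promoter windows from RefSeq (GRCm38.p6, 250 bases before to 50 bases after the annotated start) were matched by symbol for 8 of the 10 genes, all but Ier2 and Egr1. The window was searched on both strands for the CArG box, which SRF binds, for TGACGTCA, the cyclic AMP response element that CREB binds, for the shorter TGACG contained in it, for the AP-1 site TGANTCA and for the TATA box TATAAA. TGACGTCA was found in Btg2 and Dusp1, against 1.79% of all 32851 windows and 3.08% of the 10399 windows of genes tested for expression here. TGACG was found in 6 of the 8 genes (Fos, Fosb, Junb, Dusp1, Dusp2 and Btg2), against 20.8% of all windows and 31.3% of those of tested genes. TATAAA was found in Fos and Junb (13.6% of all windows, 6.64% of those of tested genes). In Junb it lay at bases 1 to 6 of the transcribed part, and so not before the start as in Fos. Neither the CArG box (1.63% and 1.23%) nor TGANTCA (7.81% and 4.8%) was found in the window of any of the 8. Sites farther from the start were not searched. Of the sequences below, Fos, Btg2 and Dusp1 were, with Fosb, the genes farthest above the controls in T2, and Dusp2 was the one gene below them in both T1 and T2. Each is written 5′ to 3′ on the strand of the gene, up to the base before the annotated start, or for Dusp1 up to the first annotated exon base. Capitals mark TGACG, TGACGTCA and TATAAA on either strand. The stretches are Fos at chr12:85473640-85473889 (plus strand), Btg2 at chr1:134079156-134079405 (minus), Dusp1 at chr17:26508520-26508722 (minus) and Dusp2 at chr2:127335909-127336158 (plus).
Fos: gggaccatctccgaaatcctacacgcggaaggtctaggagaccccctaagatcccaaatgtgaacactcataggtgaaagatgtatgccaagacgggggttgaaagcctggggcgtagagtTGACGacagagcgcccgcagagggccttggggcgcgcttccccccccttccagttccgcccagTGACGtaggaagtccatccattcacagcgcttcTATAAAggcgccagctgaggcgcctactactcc
Btg2: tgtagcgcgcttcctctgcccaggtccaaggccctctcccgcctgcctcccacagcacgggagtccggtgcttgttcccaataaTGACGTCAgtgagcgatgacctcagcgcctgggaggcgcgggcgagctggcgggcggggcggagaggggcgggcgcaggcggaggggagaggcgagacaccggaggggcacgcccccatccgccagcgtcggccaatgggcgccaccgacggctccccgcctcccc
Dusp1: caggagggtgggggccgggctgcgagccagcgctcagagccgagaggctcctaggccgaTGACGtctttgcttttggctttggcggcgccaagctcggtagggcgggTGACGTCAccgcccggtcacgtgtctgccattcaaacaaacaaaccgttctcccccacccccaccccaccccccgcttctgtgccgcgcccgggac
Dusp2: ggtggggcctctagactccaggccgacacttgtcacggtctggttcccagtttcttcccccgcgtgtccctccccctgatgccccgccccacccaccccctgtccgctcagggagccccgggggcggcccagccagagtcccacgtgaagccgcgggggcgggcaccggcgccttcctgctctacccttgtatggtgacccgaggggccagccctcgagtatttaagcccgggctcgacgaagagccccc

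Fos carried TGACG at 129 and 66 bases before the start and TATAAA at 33 bases before it. TGACGTCA began 166 bases before the start in Btg2 and 143 bases before it in Dusp1, which had a further TGACG at 191 bases. The upstream stretch of Dusp2 held none of these motifs, and its single TGACG, on the opposite strand, lay 6 bases into the transcribed part. These are matches of letters in a short window, and binding was not measured.

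No member passed the threshold over the 10570 genes tested (limma on log2(FPKM + 1), adjusted p under 0.05), where 2 genes, or 0.0189%, did. The values of single libraries fell into a few patterns. Junb and Btg2 stood above every control in both T1 and T2, Dusp2 stood below every control in both, and the other 7 members overlapped between the groups. Non-overlap in 3 of the 10 compares with 26.1% of all genes. Of those 7, all but Jund were 1.96 to 22.6 times the highest control in T2, and within or below the control range in T1. The adjusted p was lowest for Dusp2 (limma, 0.345) and highest for Jund (0.954), and 3 of the 10 members (Dusp2, Junb and Btg2) had an unadjusted p under 0.05, against 8.45% of all genes.

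**Figure D1:**
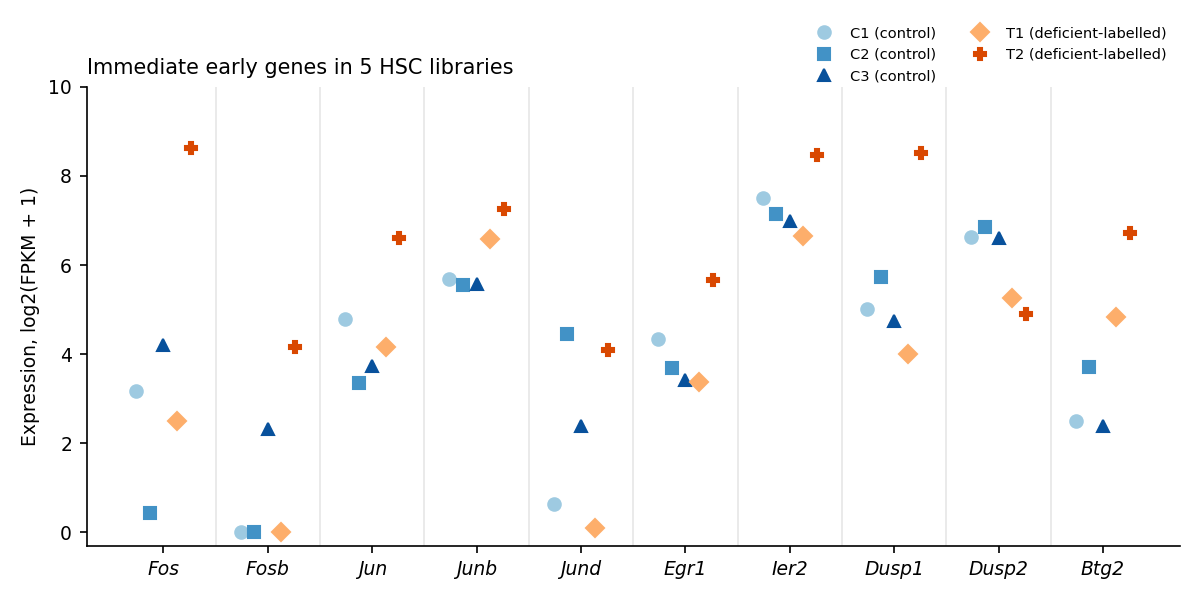
Expression of the 10 genes as log2(FPKM + 1) on the vertical axis, with 1 point per library (3 control in blue, 2 deficient-labelled in orange). T2 is the highest library for 8 of the 10 genes, Dusp2 is lowest in T1 and T2, and Fos, Fosb and Jund are spread widely among the controls.

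In the controls the levels ran from Ier2, at 149 ± 28.5 FPKM, down to Fosb, which is listed at 0 in 2 of the 3 libraries. Ier2 was above Dusp2 (103 ± 9.74 FPKM) and Dusp2 above Junb (47.8 ± 2.69 FPKM) with no overlap between the 3 libraries of each. Below these, neighbours in the order did not differ beyond their spread: Junb, Dusp1 (36.4 ± 14.1), Jun (15.99 ± 9.20), Egr1 (13.6 ± 5.04), Fos (8.62 ± 8.56), Jund (8.54 ± 10.8) and Btg2 (6.96 ± 4.42 FPKM, SD, n = 3 throughout). The members differed in how closely the controls agreed. On the log2(FPKM + 1) scale the control SD was 0.0788 for Junb and 0.133 for Dusp2, wider than in only 3.1% and 7.4% of the genes tested. It was 1.96 for Fos and 1.91 for Jund, wider than in 95.8% and 95.4% of genes. All 10 genes had a mean of at least 1 FPKM in the controls alone. The filter itself used the mean over all 5 libraries. Fosb was above 0 only in C3 (3.98 FPKM) and T2 (16.9 FPKM), so its passing rests in part on T2.

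Fos encodes the inducible AP-1 subunit from which the family takes its name. It was at 8.08, 0.342 and 17.4 FPKM in C1, C2 and C3, and at 4.67 and 394 FPKM in T1 and T2. T1 thus lay within the control range, and T2 was 22.6 times the highest control. In rank, Fos exceeded 10.2% to 55.3% of tested genes in the controls, 26.0% in T1 and 98.0% in T2. The fitted log2 fold change was 2.96 (SE 1.78, limma, adjusted p = 0.68), a mean of 1 library near the controls and 1 far above them. Without T2 it was -0.10 (adjusted p = 0.99), and without T1 it was 6.02 (SE 1.59, adjusted p = 0.348).

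Fosb, a close relative of Fos, is listed at 0 in C1 and C2 and in T1. It was at 3.98 FPKM in C3 and at 16.9 FPKM in T2. As genes that every cell uses are also listed at 0 in some libraries (the ribosomal protein gene Rpl41 in C1, for example), these zeros cannot be read as silence, and no mean is given. The fit gave a log2 fold change of 1.31 (SE 1.39, limma, adjusted p = 0.815), and -0.77 with T1 alone. Fos was likewise highest in C3 among the controls.

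Jun, which encodes a JUN partner of FOS proteins, was at 26.5, 9.14 and 12.4 FPKM in C1 to C3 and at 16.8 and 96.8 FPKM in T1 and T2. Again T1 lay inside the control range and T2 above it, by 3.66 times the highest control (log2 fold change 1.43, SE 0.78, limma, adjusted p = 0.66). Jund, which is often the least inducible JUN gene, varied widely within each group. It was at 0.559, 20.8 and 4.26 FPKM in C1 to C3 and at 0.0654 and 16.2 FPKM in T1 and T2, so T1 lay below and T2 within the control range. Its log2 fold change of -0.40 (SE 1.47, limma, adjusted p = 0.954) turned to 0.58 without C2 and to 1.61 without T1.

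Junb encodes the JUN protein that can also oppose JUN at growth-promoting targets. It was at 50.8, 45.6 and 46.9 FPKM in C1 to C3 and at 94.7 and 153 FPKM in T1 and T2. T1 and T2 were above every control, at 1.98 and 3.20 times the control mean. Non-overlap in this direction was met by 10.2% of the genes tested. The log2 fold change was 1.32 (SE 0.32, unadjusted p = 0.00382, limma, adjusted p = 0.433). It was 0.97 with T1 alone and 1.66 with T2 alone. Junb shares 173 exon bases with Prdx2, a peroxiredoxin gene on the opposite strand (GENCODE vM21). Whether the counting used strand is not stated in the labels, so reads from these bases cannot be assigned. Prdx2 was at 309 to 411 FPKM among the controls and 362 and 490.3 FPKM in T1 and T2. Other members also overlap antisense models, Jun over 232 exon bases with Junos and Jund over 877 with Gm11175, which were not analysed here, and Dusp1 over 11 with Ergic1.

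The sum of the 3 JUN genes was 63.6 to 77.8 FPKM in the controls, 112 FPKM in T1 and 266 FPKM in T2. Junb made up most of it in every library, at 60.4% to 73.8% in the controls, 84.8% in T1 and 57.5% in T2. Fos and Fosb together were at 8.08, 0.342 and 21.4 FPKM in C1 to C3 and at 4.67 and 411 FPKM in T1 and T2. JUN-family transcripts therefore outweighed FOS-family transcripts in 4 libraries, where the FOS to JUN ratio was 0.00453 to 0.337. In T2 the order was the opposite, with a ratio of 1.54. Fosl2, a further FOS-family gene that these sums leave out, was at 0.664, 13.6 and 5.72 FPKM in C1 to C3. It was at 4.62 and 14.3 FPKM in T1 and T2. In C2, where the ratio was lowest, Fosl2 was thus above Fos and Fosb together, so that ratio depends on leaving it out.

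**Figure D2:**
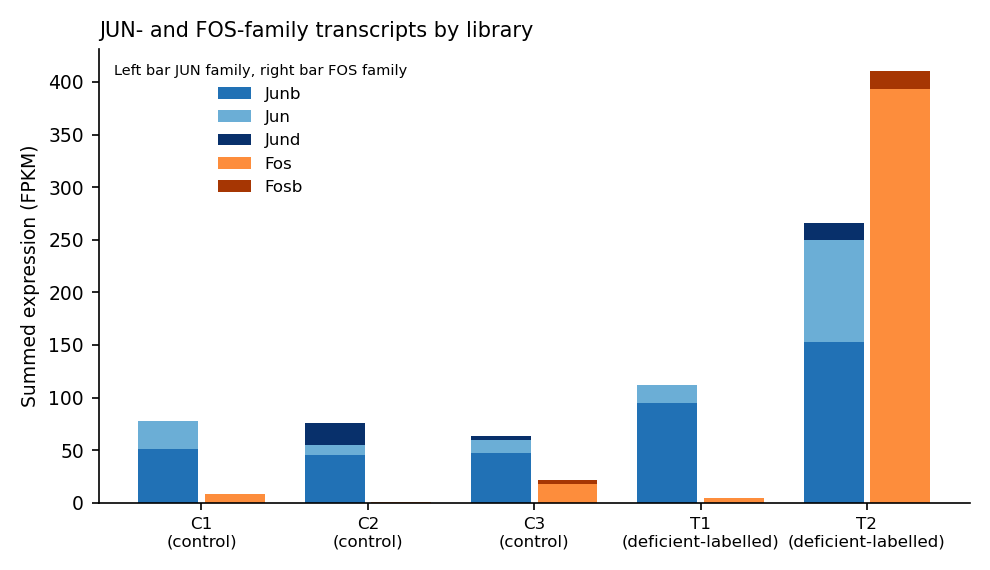
Summed FPKM of the JUN-family genes (left bar, Junb, Jun and Jund stacked) and the FOS-family genes (right bar, Fos and Fosb) in each of the 5 libraries. Junb is the largest JUN share throughout, and the FOS bar exceeds the JUN bar in T2 (411 against 266 FPKM) and in no other library.

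Egr1, a zinc-finger factor induced by the same signals as Fos, was at 19.3, 11.9 and 9.72 FPKM in the controls. It was at 9.35 FPKM in T1, just under the lowest control, and at 49.98 FPKM in T2, or 2.59 times the highest control. Ier2, the most abundant member in the controls, was at 181, 139.6 and 127 FPKM there and at 99.95 and 354 FPKM in T1 and T2. For both genes T1 thus lay below every control and T2 above every control. The log2 fold changes of Egr1 and Ier2 were 0.70 (SE 0.73) and 0.35 (SE 0.51), with adjusted p of 0.809 and 0.872 (limma). Across the 5 libraries these 2 genes had the most similar profiles of any pair of members (root-mean-square distance 0.302 in log2(FPKM + 1) centred on the control mean).

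The 2 phosphatases had different profiles. Dusp1, which acts mainly on p38 and JNK, was at 31.3, 52.4 and 25.6 FPKM in C1 to C3 and at 15.1 and 365 FPKM in T1 and T2. T1 lay below every control and T2 was 6.97 times the highest, a difference of 24.2-fold between T1 and T2. The log2 fold change was 1.10 (SE 1.13, limma, adjusted p = 0.808), and -1.15 with T1 alone. Dusp2, a nuclear phosphatase first known from activated lymphocytes, was at 98.2, 114 and 96.0 FPKM in C1 to C3 and at 37.5 and 28.8 FPKM in T1 and T2. T1 and T2 were below every control, with a mean 3.10-fold lower, and non-overlap in this direction was met by 15.9% of genes. Its log2 fold change of -1.61 (SE 0.30) had the smallest p among the members (unadjusted p = 0.000771, limma, adjusted p = 0.345). It stayed between -1.79 and -1.43 when any library was left out.

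Btg2, whose product recruits the CCR4-NOT deadenylase to messenger RNA and slows cell division, was at 4.63, 12.1 and 4.20 FPKM in the controls. It was at 27.6 and 105 FPKM in T1 and T2. Both values were above every control, at 3.97 and 15.0 times the control mean. The log2 fold change was 2.92 (SE 0.72, unadjusted p = 0.00408, limma, adjusted p = 0.433), 1.98 with T1 alone and 3.86 with T2 alone.

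**Figure D3:**
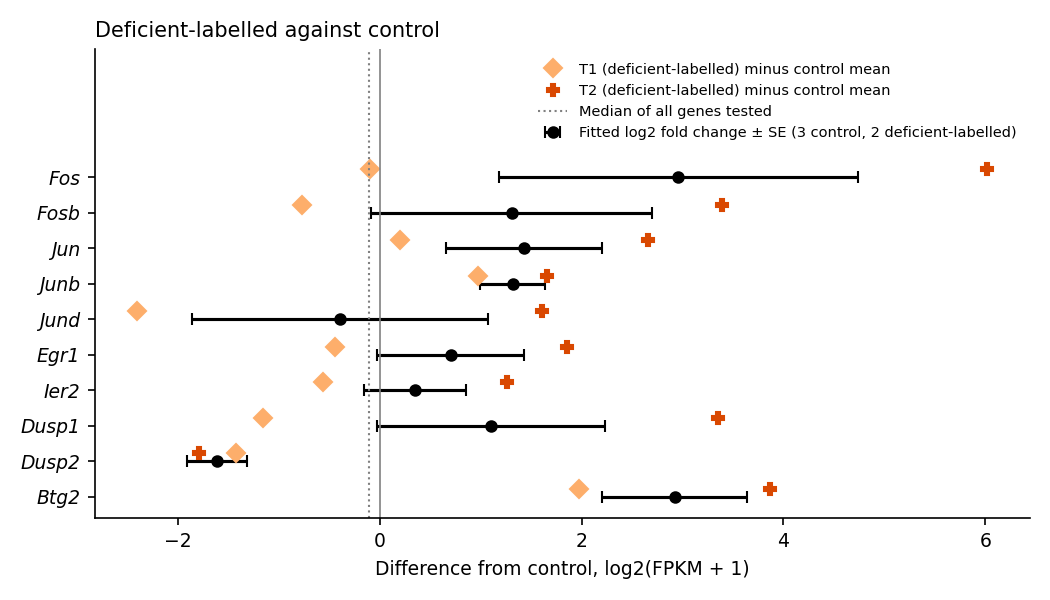
Difference from control on the log2(FPKM + 1) scale for the 10 genes: black points are limma log2 fold changes with SE bars (3 control, 2 deficient-labelled libraries), and coloured points are each deficient-labelled library minus the control mean. The 2 coloured points lie close together for Junb and Dusp2, and on opposite sides of 0 for Fos, Fosb, Jund, Egr1, Ier2 and Dusp1.

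Over the 10 genes, 8 log2 fold changes were positive and 2 negative (Jund and Dusp2), with a median of 1.20. Of all genes tested 44.3% were positive, with a median of -0.10. The median of all genes was 0.016 after median-of-ratios scaling, under which the 10 genes were again 8 positive and 2 negative. With T1 alone the median of the 10 was -0.50 (3 positive, 7 negative), and with T2 alone it was 2.26 (9 positive, 1 negative). T2 was above every control for 8 members (21.6% of all genes), and T1 for 2 (26.5%). T1 was below every control for 5 (28.6%), and T2 for 1 (33.4%). T2 was the highest of the 5 libraries for 8 members, all but Jund and Dusp2, as it was for 16.4% of all genes. T1 was the lowest for 4 members (Jund, Egr1, Ier2 and Dusp1), as for 20.0% of genes. Between T1 and T2, which carry the same label, 9 of 10 members were higher in T2 (44.6% of all genes), by a median of 2.38 on the log2 scale against -0.083 for all genes.

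**Figure D4:**
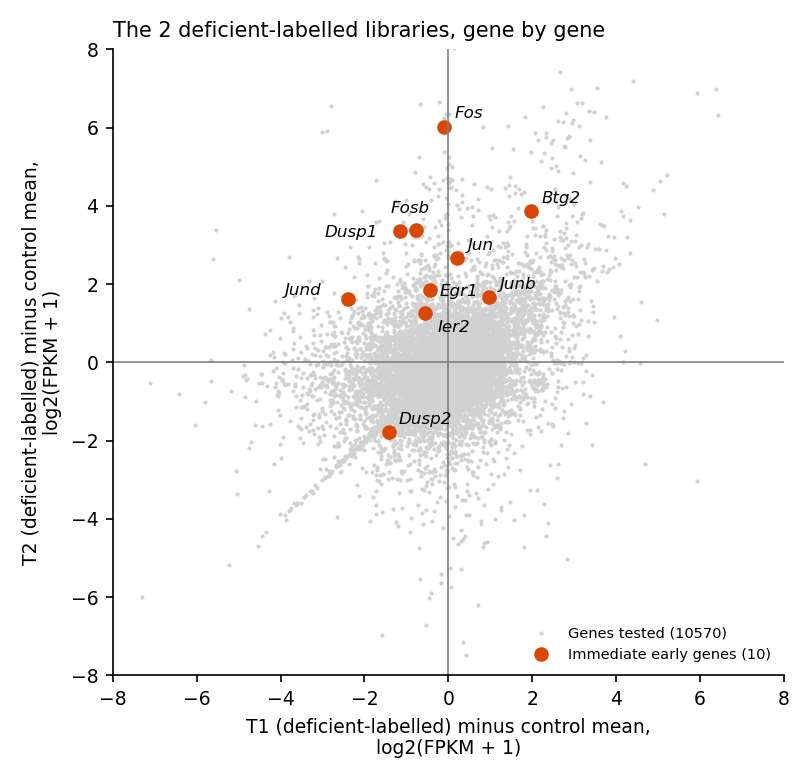
Each gene's difference from the control mean in T1 (horizontal) and T2 (vertical), in log2(FPKM + 1), for the 10570 genes tested (grey, 4 outside the axes) and the 10 immediate early genes (orange). Of the 10, 9 lie above 0 on the vertical axis, 6 of these to the left of 0 on the horizontal axis, and Dusp2 lies below 0 on both.

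Markers of other cell types also differed between T1 and T2. All 16 granulocyte-monocyte markers were highest in T2 and none was at 0 in any library. Of 9 erythroid markers, 7 were highest in T2, and their summed level was 55.8 to 73.7 FPKM in the controls, 155 FPKM in T1 and 412 FPKM in T2. All 4 B cell markers in the table were highest in T2 (48.8 to 59.5 FPKM summed in the controls, 21.2 and 156 FPKM in T1 and T2). Of 7 dendritic cell and macrophage markers 4 were highest in T2, with a sum of 95.0 to 235 FPKM in the controls, 158 FPKM in T1 and 299 FPKM in T2. Mast cell and basophil markers (3 in the table) summed to 0 to 6.15 FPKM in the controls, 5.58 FPKM in T1 and 30.1 FPKM in T2, and endothelial and stromal markers (6) to 23.0 to 28.4, 38.5 and 68.4 FPKM. The 3 T and NK cell markers, mainly Nkg7, summed to 35.2 to 105 FPKM in the controls, 349 FPKM in T1 and 195 FPKM in T2. Megakaryocyte and platelet markers had a higher sum in T1 than in T2, although their median difference from control was 1.62 in T1 and 1.75 in T2. The sum was 458 to 1162 FPKM in the controls, 8260 FPKM in T1 and 3746 FPKM in T2. HSC markers summed to 989 to 1049 FPKM in the controls, 886 FPKM in T1 and 663 FPKM in T2. The part of such cells in the levels of the 10 genes was not tested.

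The 10 genes also share a compact structure, which is a property of the annotation and not of these samples. In the longest coding transcript of GENCODE vM21, Jun, Junb, Jund and Ier2 have 1 exon, Egr1 and Btg2 have 2, and Fos, Fosb, Dusp1 and Dusp2 have 4. At most 4 exons were found in 19.8%, and at most 2 in 6.37%, of the tested genes matched by symbol (95.1%), whose median was 9. The transcripts are 1522 to 4484 bases long with a median of 2049, against a median of 3053.

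Related genes were read from lists that had been drawn up from general knowledge, and none of their members passed the threshold (limma, adjusted p). Among 13 tested AP-1 and other basic leucine zipper genes, 8 were positive and 5 negative, with a median log2 fold change of 0.43. The median difference from the control mean was 0.29 in T1 and 0.43 in T2. Of the 13, 3 had an unadjusted p under 0.05 (limma, 8.45% of all genes). The groups did not overlap for 3 higher and 1 lower of them, against 10.2% and 15.9% of all genes. Batf, an AP-1 subunit of lymphocytes and the most abundant of them, was at 94.2, 69.5 and 151 FPKM in C1 to C3 and at 44.3 and 44.04 FPKM in T1 and T2, below every control (log2 fold change -1.16, adjusted p = 0.487). Atf4, of the integrated stress response, was at 54.2 ± 5.41 against 73.1 ± 0.222 FPKM (SD, n = 3 and 2, limma adjusted p = 0.711). Mafg, a small MAF protein that pairs with other zipper proteins, was at 13.7 ± 4.76 against 32.2 ± 2.75 FPKM (adjusted p = 0.546).

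A list of 28 further tested immediate early and early response genes also differed between T1 and T2. T2 was the highest library for 15 of the 28 (16.4% of all genes), and the median difference from the control mean was 0.79 in T2 and -0.33 in T1. In the fit 17 were positive and 11 negative (median 0.24), and 4 had an unadjusted p under 0.05 (8.45% of all genes), of which Id2 was higher and Klf10, Rgs1 and Errfi1 were lower. Of the 28, 6 did not overlap between groups, 3 higher and 3 lower, against 26.1% of all genes. The 2 most abundant, Myc at 220.0 ± 90.0 against 165 ± 37.3 FPKM and Nfkbia, the NF-kB inhibitor, at 168 ± 39.5 against 164 ± 11.7 FPKM, differed by less than the control SD. Id2, an inhibitor of helix-loop-helix factors, was at 3.68, 0.220 and 4.38 FPKM among the controls and 14.1 and 33.8 FPKM in T1 and T2. Gadd45b, a stress-response gene, was at 0, 6.69 and 6.58 FPKM against 13.6 and 15.3, and Ier5 at 3.29 ± 1.17 against 9.35 ± 0.643 FPKM. Errfi1, a feedback inhibitor of the EGF receptor, lay the other way, at 6.49, 4.196 and 1.29 FPKM in C1 to C3 and at 0 and 0.0179 FPKM. The groups of these 4 genes did not overlap, with adjusted p of 0.44 for Id2, 0.638 for Gadd45b, 0.64 for Ier5 and 0.56 for Errfi1 (limma). The other 2 that did not overlap were both lower, Klf10 at 102, 55.2 and 54.9 FPKM in C1 to C3 and 24.0 and 41.2 FPKM in T1 and T2, and Rgs1 at 81.2, 50.4 and 72.1 FPKM against 42.6 and 18.8 FPKM. Klf10, Rgs1, Zfp36 and Klf2 are named because of their values. Zfp36, which destabilises messenger RNAs of this class, was at 21.3, 29.4 and 62.1 FPKM in C1 to C3 and at 12.4 and 295 FPKM in T1 and T2. Klf2, a zinc-finger factor gene, was at 0.0809 to 0.827 FPKM in the controls, 0.109 FPKM in T1 and 130.4 FPKM in T2.

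In 4 related families the medians of T1 and T2 lay closer to the controls, and 0 to 3 genes of each had an unadjusted p under 0.05 (limma, 8.45% of all genes). For 13 other dual-specificity phosphatase genes they were -0.011 and -0.22, T2 was highest for 1, and 4 were positive and 9 negative in the fit (median -0.093). Dusp6, a cytoplasmic ERK phosphatase and itself an ERK target, was at 26.8 ± 4.20 FPKM among the controls and 21.9 and 14.9 FPKM in T1 and T2, below every control (adjusted p = 0.737). Dusp3 lay above every control, at 7.35 ± 3.00 against 22.7 ± 7.38 FPKM (adjusted p = 0.54). Among 12 genes of the BTG/TOB family and the CCR4-NOT complex that BTG2 recruits, 5 were positive and 7 negative (median -0.11), with medians of 0.0064 in T1 and -0.10 in T2. Cnot8, a deadenylase subunit, was at 65.5 ± 13.1 against 69.95 ± 20.5 FPKM. Of 26 genes of the ERK, JNK and p38 cascades and of SRF with its partners, 16 were positive and 10 negative (median 0.15), with medians of 0.19 in T1 and 0.32 in T2. Of these 26, 9 did not overlap between groups, 5 higher and 4 lower, against 26.1% of all genes in either direction. Hras was at 0, 0.0887 and 1.48 FPKM among the controls and 13.9 and 6.20 FPKM in T1 and T2 (adjusted p = 0.439). Map2k1, which encodes the ERK kinase MEK1, was at 33.3 ± 1.13 against 70.07 ± 25.6 FPKM and the p38 kinase kinase gene Map2k6 at 17.2 ± 5.53 against 4.60 ± 0.145 FPKM (both adjusted p = 0.505). Of 9 heat shock chaperone genes 3 were positive and 6 negative, with medians of 0.030 in T1 and -0.20 in T2. T2 was the highest library for 2 of the 9, Hspa1a and Hspb1 (16.4% of all genes), which are named because of their values. Hspa1a was at 0, 0.0226 and 1.32 FPKM in C1 to C3 and at 0.674 and 21.9 FPKM in T1 and T2. Hspb1 was at 2.93, 0 and 0.0639 FPKM in C1 to C3 and at 0 and 8.85 FPKM in T1 and T2. Hspa8, a constitutive chaperone, was at 1791 ± 20.1 against 1397 ± 220.2 FPKM (SD, n = 3 and 2; limma, adjusted p = 0.719).

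**Figure D5:**
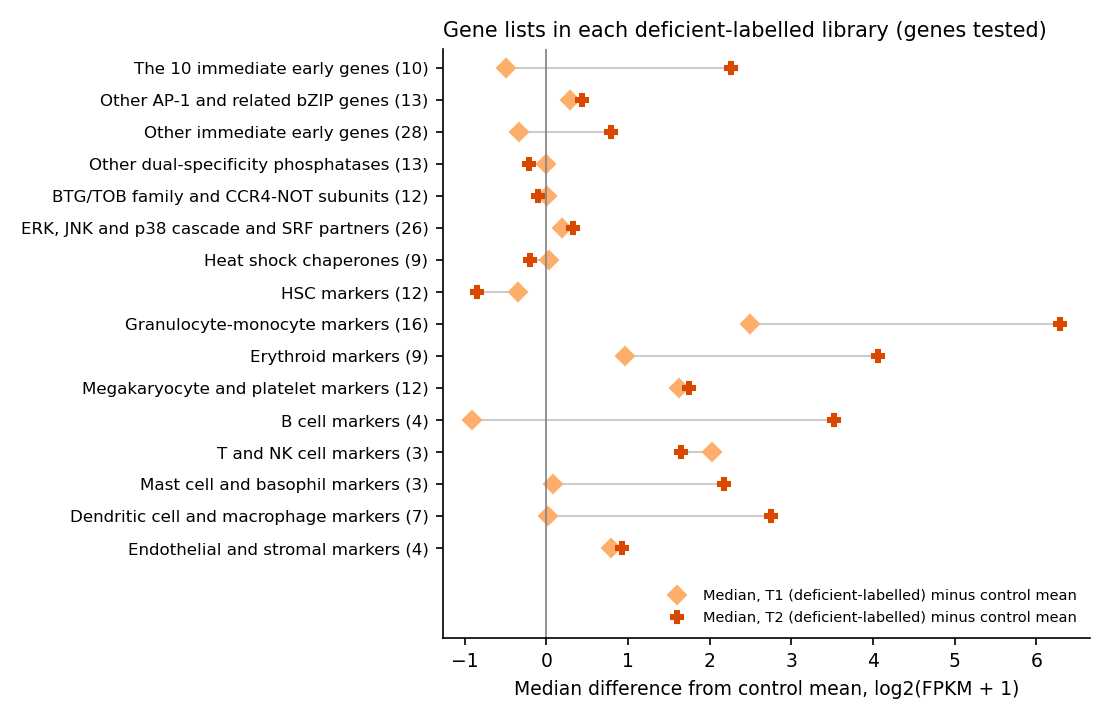
Median difference from the control mean, in log2(FPKM + 1), of each gene list in T1 (diamonds) and T2 (crosses), with the number of genes tested in brackets. The 10 immediate early genes lie at -0.50 and 2.26, granulocyte-monocyte markers at 2.50 and 6.29, and the kinase, phosphatase, CCR4-NOT and chaperone lists near 0 in both libraries.

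Among the 10560 other tested genes, those with the profile nearest to Fos over the 5 libraries were Fcnb, a ficolin of neutrophil precursors (distance 0.897), Mcemp1 (0.985) and Mapk13, the p38 delta kinase gene (1.02). Fcnb was at 0.0685 to 6.65 FPKM in the controls, 0.342 in T1 and 209 in T2. Nearest to Junb were Tmem50b (0.168), Dhrs7 (0.183) and Gsap (0.189), and Dhrs7 was at 24.1 to 28.3 FPKM among the controls and 41.3 and 95.5 FPKM in T1 and T2. Nearest to Dusp2 were the palmitoyltransferase gene Zdhhc1 (0.104), Gm1673 (0.138) and the mannosidase gene Man1a2 (0.144). Zdhhc1 was at 37.1, 40.97 and 29.1 FPKM among the controls and 12.2 and 9.40 FPKM in T1 and T2. With 5 libraries, such likeness is a description of these values only.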

How the data were processed

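The authors deposited 1 table of FPKM per gene symbol, and its unit is taken from the table's name. The submitters' processing notes list mm9 as build and TopHat and edgeR as tools, without versions or roles. Which annotation and which tool gave these values is not given in the sources used here. Each value is relative to the library total, so very abundant genes lower the others in that library.

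The test was limma's (version 3.58.1, R 4.3.3) moderated two-sided test with a variance trend, on log2(FPKM + 1), for the 10570 of 11643 genes averaging 1 FPKM or more, with Benjamini-Hochberg adjustment over all of them and a threshold of 0.05. Fold changes on this scale understate those of low genes. The method was tested on simulated data. Relative depth is the commonest ratio of values under 0.3 FPKM, within 0.5%, and rests on 8 to 36 genes. All 10 genes are named. From each related list the text names the 2 most abundant genes and up to 4 with non-overlapping groups and an absolute log2 fold change of at least 1, or fewer. Markers and the 3 nearest profiles to Fos, Junb and Dusp2 are added. Some genes that this rule selects are not reported here. The members and lists were chosen with earlier results of these data known. Promoters (RefSeq) and exon structure (GENCODE vM21) come from GRCm38, not mm9, and were matched by symbol. Alternatives covered the pseudocount, filter, scaling, variance model, library weights, replicate block and leaving out each library. Python 3.11.15 with pandas 2.3.3 and matplotlib 3.10.9 was used for summaries and plots.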

Additional observations from a re-analysis of the deposited data

How the results depend on the processing

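No member passed the threshold under any of the 14 alternatives tried, and 132 of 139 member fold changes kept their sign. The lowest adjusted p of a member was 0.21, for Dusp1 without T1 (0.345 with all libraries, for Dusp2). The number of genes past the threshold over all genes was 2, and it was 0 with a pseudocount of 0.1, without a filter or with array weights, 4 with median-of-ratios scaling, 1 with eBayes without trend and 5 with robust fitting. Leaving out each library in turn gave 0 to 2 genes. The median log2 fold change of the 10 genes, 1.20, was 1.10 when only genes averaging 5 FPKM or more were tested, which drops Fosb, 1.31 with median-of-ratios scaling and 1.03 with array weights. Leaving out each library gave -0.50 (without T2) to 2.26 (without T1), and 3 to 9 members with non-overlapping groups, against 3 (9 without T1 and 7 without T2). A lone library lies outside the control range more often: of all genes, 21.6% were above and 33.4% below every control in T2, and 26.5% above and 28.6% below in T1. Over the same runs the log2 fold change ran from -0.10 to 6.02 for Fos, -0.77 to 3.39 for Fosb, -2.40 to 1.61 for Jund, -0.45 to 1.85 for Egr1, -0.56 to 1.26 for Ier2 and -1.15 to 3.35 for Dusp1. Apart from Jund, the sign turned only without T2. The cause was not tested. Runs without 1 deficient-labelled library assume that the remaining one varies like the controls.

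With the replicate number as a block, 22 genes passed, none of them a member, and the median of the 10 was 1.09. The groups share only the numbers 1 and 2. Deviations of same-numbered libraries had r = 0.0352 and 0.00687 across genes, which are not independent replicates. With 2 deficient-labelled libraries, T1 and T2 deviate from their mean by equal and opposite amounts, so both r rest on the same difference. They cannot show whether the numbers pair the libraries. As the table holds no counts, counting error could not be computed.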
